A study of Mus musculus with 15 samples.

Results

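The genes described here encode the enzymes and partner proteins that write, copy, oxidise and remove methyl marks on DNA: Dnmt1, Uhrf1, Dnmt3a, Dnmt3b, Dnmt3l, Tet1, Tet2, Tet3 and Tdg. The probes were taken as every non-control probe whose gene name in the scanner output equals one of these 9 symbols, which gave 19 of the 39429 probes on the array. All 19 passed the filter on dim signal, as did 27250 probes of the whole array. Total RNA came from mouse embryonic stem (ES) cells and from embryoid bodies, the aggregates in which ES cells differentiate, named EB9 in the labels. The 4 groups were Cbx7 knockdown EB9 with the short hairpin that the labels number 33 (4 arrays), control EB9 (4 arrays), Cbx7 knockdown ES cells with the same hairpin (4 arrays) and control ES cells (3 arrays, numbered 2 to 4). The labels give the treatment of the controls as none, while the series' design text calls the ES controls shCtr; the ES line, its strain and the way EB9 were grown are not given in the sources used here. Knockdown rests on 1 hairpin, so an effect of depleting Cbx7 and an effect of that hairpin cannot be told apart. All arrays are named biological replicates, and each p-value sets a difference beside the variation among arrays that share a group.

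DNA methylation in mammals sits mainly on cytosines of CpG dinucleotides. De novo methyltransferases (DNMT3A and DNMT3B, helped by the catalytically inactive DNMT3L) place it, and DNMT1, recruited by UHRF1 to the hemimethylated sites left by replication, copies it to the new strand. TET dioxygenases oxidise methylcytosine stepwise, and the glycosylase TDG excises the later oxidation products, which base excision repair replaces with unmodified cytosine. ES cells are known for high levels of Dnmt3b, Dnmt3l and Tet1, and CBX7 is the chromodomain subunit of canonical Polycomb repressive complex 1 that is prevalent in them.

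The probe sequences below are shown because the results of a gene rest on these letters and, for Tet3 and Tdg, on which probe is read. They are the 60-base probes of the scanner output, in lower case and in the direction in which it gives them. The Dnmt1 probe maps to chr9:20711973-20712341 on the minus strand and the upstream Uhrf1 probe to chr17:56451668-56452321 on the plus strand (build mm9), stretches of 369 and 654 bases, so that each crosses at least 1 intron.
Dnmt1: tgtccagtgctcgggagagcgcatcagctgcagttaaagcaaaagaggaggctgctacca
Uhrf1 upstream probe: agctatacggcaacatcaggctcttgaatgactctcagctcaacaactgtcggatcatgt
The 3 Tet3 probes follow, in order along the transcript and all on the minus strand of chromosome 6: chr6:83352743-83352802, chr6:83319720-83319779 and chr6:83318731-83318790.
Tet3 probe 1: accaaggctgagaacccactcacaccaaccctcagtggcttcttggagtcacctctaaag
Tet3 probe 2: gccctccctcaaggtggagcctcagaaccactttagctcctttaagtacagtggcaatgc
Tet3 probe 3: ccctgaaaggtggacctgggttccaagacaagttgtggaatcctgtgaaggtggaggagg
The first Tdg probe lies on the plus strand at chr10:82110701-82110760.
Tdg probe 1: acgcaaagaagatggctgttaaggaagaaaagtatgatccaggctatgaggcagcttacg

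All 9 genes matched RefSeq promoter windows (build GRCm38.p6), 16 windows in all, of which the 250 bases before each annotated start were read. Letters of motifs were searched on both strands. The E2F-type letters TTTCGCGC, recognised by factors that drive S phase genes, stood in 2 of the 16 windows, the third Dnmt1 window and the second Uhrf1 window, and in 0.256% of all 32851 windows. These 2 stretches are shown, with the motif in capitals, because the letters are uncommon and because Dnmt1 and Uhrf1 act together at replication. The Dnmt1 stretch is chr9:20952824-20952853 on the minus strand and the Uhrf1 stretch is chr17:56304117-56304146 on the plus strand.
Dnmt1 window 3: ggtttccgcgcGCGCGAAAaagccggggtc
Uhrf1 window 2: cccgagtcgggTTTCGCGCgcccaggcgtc
Other letters searched were GGGCGG (in 11 of the 16 windows, and 32.7% of all), CCAAT (6, and 33.8%), CACGTG (3, and 6.02%), TGACGTCA (1, in the Tdg window, and 1.55%) and the motif of NRF1 (0, and 0.782%). A match in such a window is a description of its letters, and an absent match says nothing about a factor.

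CpG content, the substrate of these enzymes, differed widely among their own promoters. The Tet2 window held 51 CpGs, more than 99.9% of all windows, and the Dnmt3l windows held 5, 4 and 3, against a median of 6 over all windows. The windows of Tet2, Tet1 and Dnmt3b, each the only one of its gene, are printed with CpGs in capitals; they hold 51, 15 and 21. Their positions are chr3:133544391-133544640 on the minus strand, chr10:62887325-62887574 on the minus strand and chr2:153649199-153649448 on the plus strand.
Tet2: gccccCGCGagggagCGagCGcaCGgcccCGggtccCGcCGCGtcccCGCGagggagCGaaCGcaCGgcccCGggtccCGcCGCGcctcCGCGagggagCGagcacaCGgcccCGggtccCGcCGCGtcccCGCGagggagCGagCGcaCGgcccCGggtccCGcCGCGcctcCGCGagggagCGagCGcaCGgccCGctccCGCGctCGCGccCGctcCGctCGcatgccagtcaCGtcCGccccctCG
Tet1: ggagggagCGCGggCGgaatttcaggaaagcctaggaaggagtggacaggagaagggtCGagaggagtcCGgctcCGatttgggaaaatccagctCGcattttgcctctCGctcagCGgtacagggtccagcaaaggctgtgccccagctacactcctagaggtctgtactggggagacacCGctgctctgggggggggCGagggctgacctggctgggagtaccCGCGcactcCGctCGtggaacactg
Dnmt3b: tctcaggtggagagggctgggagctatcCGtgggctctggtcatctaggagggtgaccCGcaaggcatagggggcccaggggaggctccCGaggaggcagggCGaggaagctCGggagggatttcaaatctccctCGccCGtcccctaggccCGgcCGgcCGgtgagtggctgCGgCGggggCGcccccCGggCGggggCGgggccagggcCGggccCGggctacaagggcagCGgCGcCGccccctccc

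The levels given below are log2 of the processed signal minus the array's own 75th percentile, so 0 is the level of a probe at that percentile, and levels of different probes are not compared. A probe passed the test at a limma adjusted p under 0.05 over all 27250 probes. Arrays lay on 4 slides, with control EB9 always at position 1, Cbx7 knockdown EB9 at 2, control ES cells at 3 and Cbx7 knockdown ES cells at 4, so effects of position and of group cannot be told apart. Slide 4 held no ES control. Between 62.5% and 69.0% of features were well above background on an array, and 75.4% on control EB9 2, and no feature was saturated. The scaling left the median of all probes at -0.13 in EB9 against ES cells of the controls and -0.17 in those of the knockdown, and at 0.05 and -0.01 for the knockdown in ES cells and in EB9. Pluripotent markers followed the labelled cell states: of 20, 19 were lower in EB9 than in ES cells in both controls and knockdown. Of 11 fibroblast markers 10 were higher in both. Germ layer markers were mixed: of 27, 19 were higher and 5 lower in the controls, and 18 higher and 8 lower in the knockdown. In bulk RNA, fewer cells of a type and less RNA per cell cannot be told apart.

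The targeted gene, Cbx7, was read by 2 probes. At the brighter probe its levels were -5.14, -4.94, -4.69 and -5.10 in Cbx7 knockdown EB9 against -4.78, -4.64, -4.46 and -5.35 in control EB9, and -4.86, -4.37, -4.36 and -4.77 in Cbx7 knockdown ES cells against -4.97, -4.22 and -4.21 in control ES cells. The groups overlapped in both cell states, and neither difference passed (-0.16 ± 0.22 SE, adjusted p = 0.708, in EB9 and -0.13 ± 0.23 SE, adjusted p = 0.733, in ES cells). The other Cbx7 probe exceeded background clearly on only 2 of 4 arrays in each group apart from control ES cells, where all 3 arrays did, so its fitted differences rest partly on dim arrays. On arrays 1 to 4 it read -7.85, -4.44, -4.61 and -7.37 in knockdown ES cells, of which the middle pair was well above background, against -6.30, -3.14 and -3.04 in control ES cells. Its arrays on slides 1 and 4 sat lower than those on slides 2 and 3 in every group. The limma test gave a difference of -1.91 in ES cells (adjusted p = 0.256), and -1.41 with the slide as a term (adjusted p = 1e-04). In EB9 the difference was -0.27 in both fits, with an adjusted p of 0.92, and 0.221 with the slide as a term. Neither probe passed in EB9, with or without the slide as a term. Groups are therefore called by their labels, and these arrays do not settle whether, or by how much, the Cbx7 transcript was depleted.

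With 1 probe a gene, the brightest over all arrays, 1 gene was higher and 5 were lower in control EB9 than in control ES cells, where 74.9% of all probes passed (33.8% higher, 41.2% lower). In Cbx7 knockdown EB9 against Cbx7 knockdown ES cells the counts were again 1 higher and 5 lower, with 78.2% of all probes called (34.2% higher, 43.9% lower). The knockdown gave 2 higher and 1 lower in EB9, where 14.1% of all probes passed (7.65% higher, 6.49% lower). In ES cells it gave 1 higher and 2 lower, where 38.1% passed (21.9% higher, 16.2% lower). The knockdown effect in EB9 minus the effect in ES cells passed for 4 of the 9 genes (1 positive, 3 negative), against 28.9% of all probes (12.4% positive, 16.5% negative). Over all 19 probes, 3 were higher and 9 lower in control EB9 against control ES cells, 2 and 11 in knockdown EB9 against knockdown ES cells, 4 and 3 for the knockdown in EB9, and 4 and 5 for the knockdown in ES cells. The third Tet3 probe, which passed the filter only through EB9 arrays, is among those higher in both comparisons of EB9 with ES cells. Groups did not overlap for 3 of the 9 genes in the knockdown of EB9 (15.2% of all probes) and for 4 in that of ES cells (49.3%), and for 6 in EB9 against ES cells in the controls (73% of all probes) and 6 in the knockdown (74.4%). These counts of 9 genes were not tested against the shares, and so few genes cannot show whether the set departs from them. The results below are those of single genes. Counts of other gene lists given below are to be read against the same shares. No list was tested as a set, and a count near the shares is no result of its list.

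**Figure D1:**
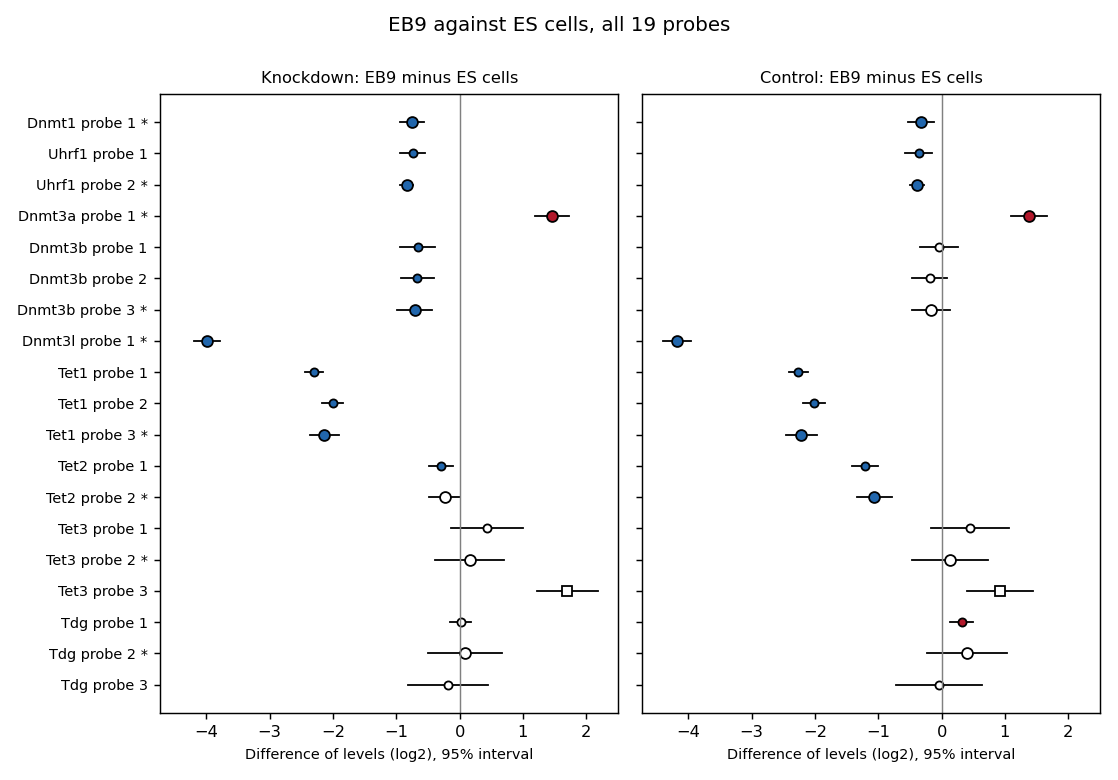
Difference of levels (log2, with 95% intervals) between EB9 and ES cells for all 19 probes, in the Cbx7 knockdown (left) and in the controls (right). Filled circles passed at a limma adjusted p under 0.05 (red higher, blue lower), open circles did not, asterisks mark each gene's brightest probe, and the square marks the third Tet3 probe, not well above background on any ES array. Dnmt3l lies near -4 and the 3 Tet1 probes near -2 in both panels, while the 3 Dnmt3b probes are filled in the knockdown panel and open in the control panel.

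Maintenance genes came first by role. Dnmt1, which copies methylation after replication, had levels of 1.90, 1.66, 1.65 and 1.88 in Cbx7 knockdown EB9 and 2.02, 1.85, 1.92 and 1.99 in control EB9. In Cbx7 knockdown ES cells it had 2.69, 2.38, 2.47 and 2.57, and in control ES cells 2.43, 2.16 and 2.23. Every EB9 array lay below every ES array, with the lowest levels in knockdown EB9 and the highest in knockdown ES cells, and within a cell state knockdown and control overlapped. Dnmt1 fell by 0.76 ± 0.09 (SE) on the log2 scale in knockdown EB9 against knockdown ES cells (1.69-fold lower, adjusted p = 2.91e-06). In control EB9 against control ES cells it fell by 0.33 ± 0.10 (1.25-fold, adjusted p = 0.00705). The knockdown difference was -0.18 ± 0.09 in EB9 (adjusted p = 0.216) and 0.25 ± 0.10 in ES cells (adjusted p = 0.0513), and neither passed. Without knockdown ES cells 2, control ES cells 2, or knockdown EB9 1 or 2, the Dnmt1 difference in ES cells did pass (adjusted p of 0.0243 to 0.05). On each slide, however, the knockdown array was below its control in EB9 (-0.27 to -0.11 over 4 slides) and above it in ES cells (0.22 to 0.26 over 3 slides). With the slide as a term of the limma fit the Dnmt1 difference was called in both, at an adjusted p of 0.00987 in EB9 and 0.00139 in ES cells.

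Uhrf1, which brings DNMT1 to hemimethylated sites, followed the same order of groups. At its brightest probe, near the end of the transcript, the levels were 3.33, 3.29, 3.17 and 3.26 in Cbx7 knockdown EB9 and 3.38, 3.45, 3.38 and 3.41 in control EB9. They were 4.12, 4.09, 4.09 and 4.09 in Cbx7 knockdown ES cells and 3.79, 3.71 and 3.87 in control ES cells. The 4 groups did not overlap at any point, in the order knockdown EB9, control EB9, control ES cells and knockdown ES cells from low to high. Uhrf1 rose by 0.30 ± 0.05 (SE) in knockdown ES cells against control ES cells (1.23-fold, adjusted p = 0.000561). Its difference in knockdown EB9 was -0.14 ± 0.05 (adjusted p = 0.0658). EB9 levels were lower than ES levels by 0.83 ± 0.05 in the knockdown (adjusted p = 2.02e-09) and by 0.39 ± 0.05 in the controls (adjusted p = 1.48e-05). The upstream probe, printed above, was higher by 0.36 ± 0.10 in knockdown ES cells (adjusted p = 0.0103) and differed by -0.01 ± 0.09 in knockdown EB9 (adjusted p = 0.957). Without control ES cells 4 the upstream probe's ES difference was 0.26 with an adjusted p of 0.0595.

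The knockdown effect differed between the cell states at the brightest Uhrf1 probe and, less firmly, for Dnmt1. For Uhrf1 the effect in EB9 minus that in ES cells was -0.45 ± 0.07 (SE, adjusted p = 0.000531) at the brightest probe and -0.37 ± 0.13 (adjusted p = 0.0511) upstream, where it passed without knockdown ES cells 3, control ES cells 2, knockdown EB9 1 or 2, or control EB9 3 (adjusted p of 0.0158 to 0.0499). For Dnmt1 it was -0.43 ± 0.13 (adjusted p = 0.0243), and -0.51 to -0.39 within the 3 slides that hold all groups. Without control ES cells 3, control ES cells 4 or knockdown EB9 3 the Dnmt1 difference had an adjusted p of 0.0732, 0.0589 or 0.0506, and under quantile normalisation 0.0559. With the authors' values the Dnmt1 difference did not pass either. Genes of S phase and proliferation are given beside them. Of 25, 12 were higher, 1 lower and 12 not called in knockdown ES cells, where 21.9% of all probes were higher and 16.2% lower. The higher ones included Mcm3 (+0.43 ± 0.08 SE, adjusted p = 0.00128), a subunit of the replicative helicase, and E2f2 (+0.35 ± 0.11, adjusted p = 0.0221). In knockdown EB9, 0 of the 25 were higher, 5 lower and 20 not called, where 7.65% of all probes were higher and 6.49% lower. The lower ones included Plk1 (-0.33 ± 0.07, adjusted p = 0.00675), a mitotic kinase, and Rrm2 (-0.28 ± 0.08, adjusted p = 0.0321), which makes deoxynucleotides. The mean level of the list over arrays was 2.33 to 2.64 in knockdown EB9 and 2.40 to 2.70 in control EB9, and 3.06 to 3.28 in knockdown ES cells against 2.94 to 3.09 in control ES cells. The part of proliferation in the Dnmt1 and Uhrf1 values was not tested.

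**Figure D2:**
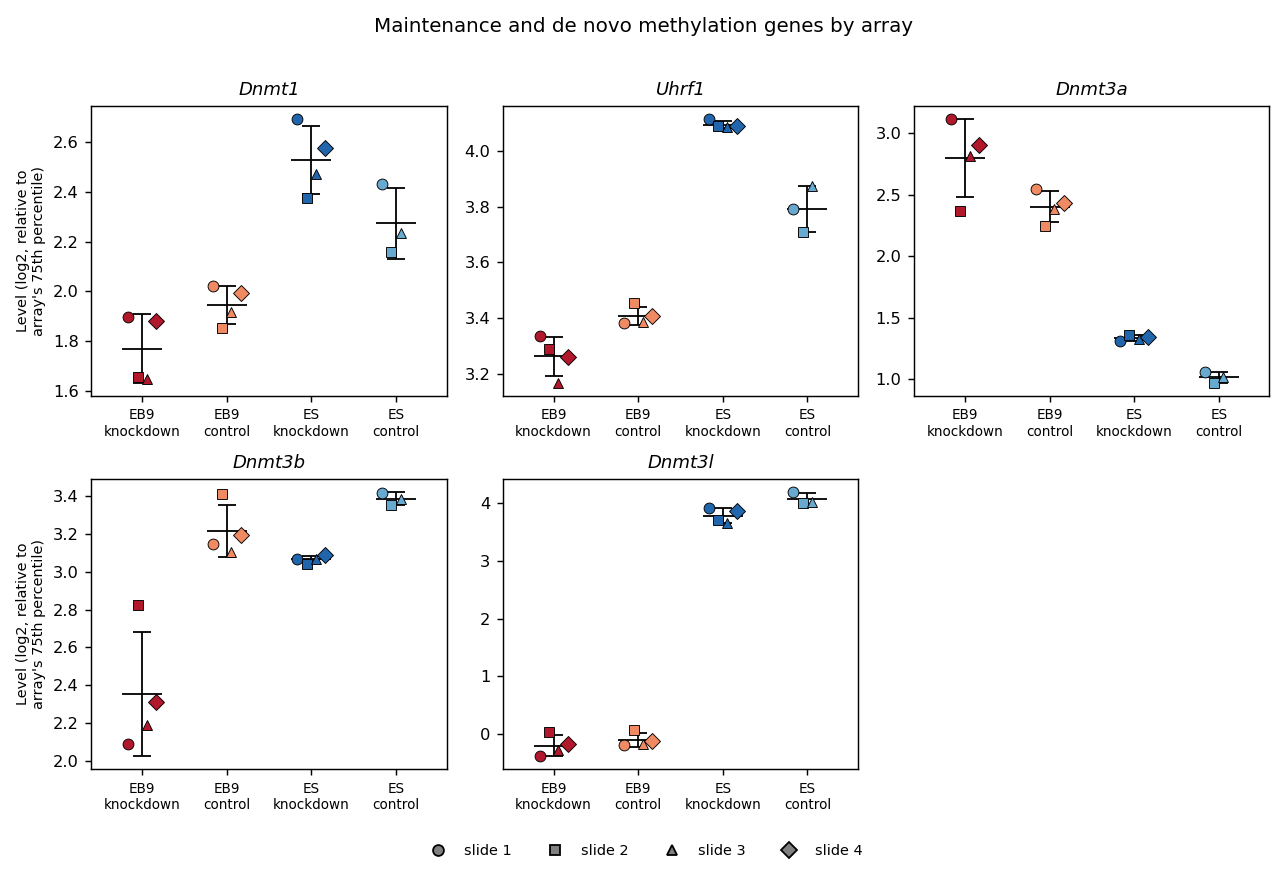
Levels of the maintenance and de novo methylation genes on each array (log2 relative to the array's 75th percentile), at each gene's brightest probe, by group. Points are arrays with the slide as marker shape, and bars give the mean ± SD (n = 4, and 3 for control ES cells). Dnmt3l is near 0 on every EB9 array and near 4 on every ES array, Dnmt3a runs the other way, and Dnmt3b is lowest in Cbx7 knockdown EB9, where array 2 sits above the other 3.

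Among the de novo genes Dnmt3a was the only one higher in EB9. Dnmt3a, a methyltransferase of differentiated and germ cells, was read by 1 probe (chr12:3914320-3914379, mm9). Its levels were 3.11, 2.36, 2.81 and 2.90 in Cbx7 knockdown EB9 and 2.55, 2.24, 2.38 and 2.43 in control EB9. In ES cells they were 1.31, 1.36, 1.33 and 1.35 in the knockdown and 1.06, 0.97 and 1.02 in the controls. All EB9 arrays lay above all ES arrays, knockdown and control overlapped in EB9 through knockdown EB9 2, and they did not overlap in ES cells. Dnmt3a was higher by 1.46 ± 0.12 (SE) in knockdown EB9 against knockdown ES cells (2.75-fold, adjusted p = 9.28e-08) and by 1.38 ± 0.13 in control EB9 against control ES cells (2.61-fold, adjusted p = 4.21e-07).

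The knockdown gave Dnmt3a differences of similar size in both cell states. In EB9 it rose by 0.40 ± 0.12 (SE, adjusted p = 0.0477), with 0.12 to 0.57 within slides. In ES cells the difference was 0.32 ± 0.13 (adjusted p = 0.0754), with 0.25 to 0.39 within slides. The difference between the 2 effects was 0.08 (95% interval -0.31 to 0.47, adjusted p = 0.808). The call in EB9 held only when knockdown EB9 2 or control EB9 1 was the array left out; without any of the other 13 arrays the adjusted p was 0.0603 to 0.131. Without knockdown EB9 2 the ES difference had an adjusted p of 0.00715, and without knockdown EB9 1 it had 0.0385.

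Dnmt3b, the de novo methyltransferase of the early embryo, was the member that fell most in the knockdown of EB9. It was read by 3 probes near the end of its transcript (chr2:153512098-153512157, chr2:153512991-153513050 and chr2:153513403-153513462, mm9). At probe 3, the brightest, levels were 2.09, 2.82, 2.19 and 2.31 in Cbx7 knockdown EB9 and 3.14, 3.41, 3.11 and 3.19 in control EB9. In Cbx7 knockdown ES cells they were 3.07, 3.04, 3.07 and 3.09 and in control ES cells 3.42, 3.35 and 3.39. Knockdown EB9 lay below every other group, and its array 2 stood between the other 3 and the controls. Dnmt3b fell by 0.86 ± 0.13 (SE) in knockdown EB9 (1.81-fold lower, adjusted p = 0.00109), and the other 2 probes gave -0.87 and -0.86. Within slides the fall at the brightest probe was 0.59 on slide 2 and up to 1.06 on slide 1.

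In ES cells the 3 Dnmt3b probes also lay lower in the knockdown, and without overlap, but only the second passed. Their differences were -0.25 ± 0.14 (SE, adjusted p = 0.177), -0.38 ± 0.13 (adjusted p = 0.0318) and -0.32 ± 0.14 (adjusted p = 0.0859) from probe 1 to probe 3. The call of the second was lost without knockdown ES cells 2, knockdown ES cells 3 or control ES cells 2 (adjusted p of 0.0828, 0.0729 and 0.139). Without knockdown EB9 2 probes 1 and 3 passed too, at adjusted p of 0.0358 and 0.00465. The knockdown effect in EB9 minus that in ES cells was -0.62 ± 0.19 (adjusted p = 0.0262), -0.48 ± 0.17 (adjusted p = 0.0551) and -0.54 ± 0.19 (adjusted p = 0.0453). The last of these passed only with all arrays or without knockdown EB9 2 or control EB9 3, and without any of the other 13 its adjusted p was 0.0537 to 0.0941. At the first probe it did not pass without knockdown ES cells 1 or 4, control ES cells 3 or 4, or knockdown EB9 3, with adjusted p of 0.0503 to 0.0681.

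Between control EB9 and control ES cells no Dnmt3b probe passed. Control EB9 against control ES cells differed by -0.17 ± 0.14 (SE, 95% interval -0.47 to 0.13, adjusted p = 0.276) at the brightest Dnmt3b probe. Knockdown EB9 against knockdown ES cells was lower by 0.71 ± 0.13 (1.64-fold, adjusted p = 0.000164). Against control EB9, primed epiblast markers, whose cell type is known for Dnmt3b, were lower for 4 of 9 genes and higher for 0 in knockdown EB9, including Sox3 (-0.99 ± 0.23 SE, adjusted p = 0.0133) and Lef1 (-0.73 ± 0.16, adjusted p = 0.0106). Their mean level over arrays was -2.78 to -1.88 in knockdown EB9 and -2.14 to -1.51 in control EB9, and 1 of the 9 was not well above background on any knockdown EB9 array. Germ layer markers were lower for 5 of 27 and higher for 0, led by the mesoderm factors T (-2.79 ± 0.36, adjusted p = 0.000501) and Mesp1 (-1.67 ± 0.22, adjusted p = 0.000621), with list means of -0.64 to -0.41 in knockdown EB9 and -0.39 to -0.10 in control EB9. In knockdown ES cells, where the Dnmt3b probes also lay lower, the primed epiblast list was higher for 3 of 9 genes and lower for 1. Sox3 was higher there (+1.53 ± 0.25 SE, adjusted p = 0.000333) and Otx2 lower (-1.48 ± 0.16, adjusted p = 1.24e-05). The part of these cell types in the Dnmt3b values was not tested.

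Dnmt3l, the inactive partner that stimulates DNMT3A and DNMT3B and is known from germ cells and ES cells, was far lower in EB9 than in ES cells. Its 1 probe (chr10:77526112-77526171, mm9) read -0.38, 0.04, -0.28 and -0.17 in Cbx7 knockdown EB9 and -0.19, 0.06, -0.17 and -0.11 in control EB9. It read 3.93, 3.71, 3.65 and 3.86 in Cbx7 knockdown ES cells and 4.19, 4.01 and 4.02 in control ES cells. EB9 and ES arrays were far apart, knockdown and control EB9 overlapped, and knockdown ES arrays lay below all control ES arrays. Dnmt3l was 15.84-fold lower in knockdown EB9 than in knockdown ES cells (-3.99 ± 0.10 SE) and 18.06-fold lower in control EB9 than in control ES cells (-4.17 ± 0.10, adjusted p = 4.68e-13). In knockdown ES cells it fell by 0.28 ± 0.10 (1.22-fold, adjusted p = 0.0446), and in knockdown EB9 the difference was -0.10 ± 0.10 (adjusted p = 0.58). Leaving out any 1 of 10 arrays, namely knockdown ES cells 2, 3 or 4, control ES cells 2, 3 or 4, knockdown EB9 3 or 4 or control EB9 3 or 4, ended the call in ES cells, with adjusted p of 0.0527 to 0.16. The difference between the 2 effects was 0.19 (95% interval -0.12 to 0.49, adjusted p = 0.364).

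**Figure D3:**
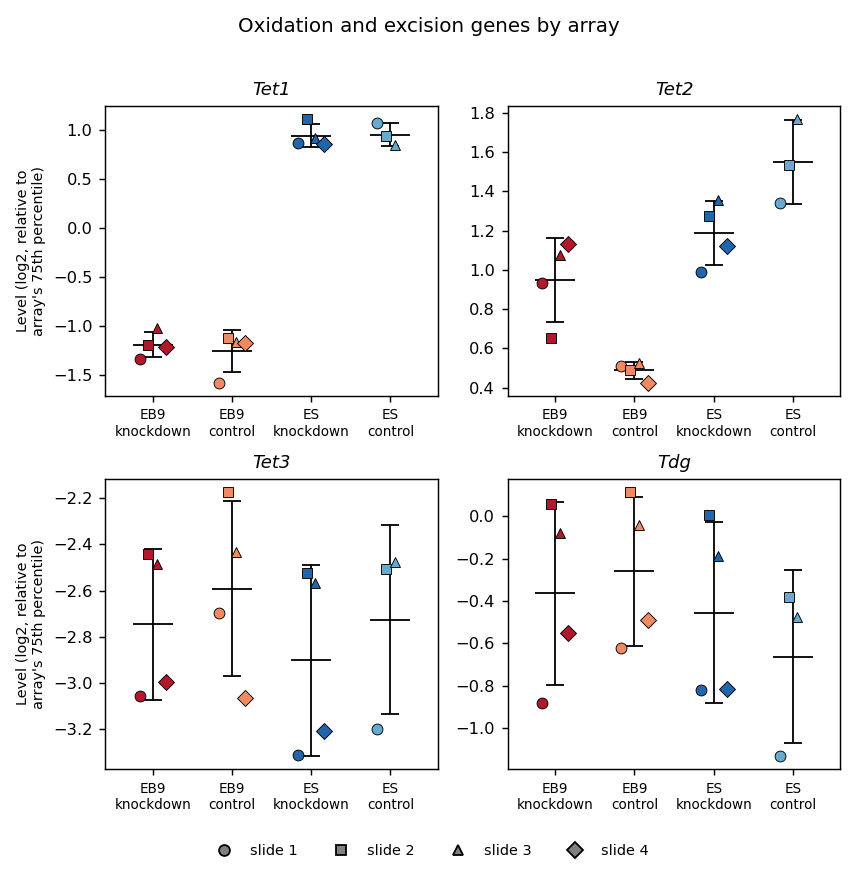
Levels of the oxidation and excision genes on each array (log2 relative to the array's 75th percentile), at each gene's brightest probe, by group. Points are arrays with the slide as marker shape, and bars give the mean ± SD (n = 4, and 3 for control ES cells). Tet1 is near -1.2 on EB9 arrays and near 0.9 on ES arrays, Tet2 is lowest in control EB9, and for Tet3 and Tdg slides 1 and 4 lie below slides 2 and 3 within every group.

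Tet1, the first of the TET genes, which oxidise methylcytosine, was lower in EB9. At probe 3, its brightest (chr10:62274448-62274507, mm9, minus strand), levels were -1.34, -1.20, -1.02 and -1.21 in Cbx7 knockdown EB9 and -1.58, -1.12, -1.16 and -1.17 in control EB9. In Cbx7 knockdown ES cells they were 0.87, 1.12, 0.93 and 0.86, and in control ES cells 1.08, 0.94 and 0.85. All EB9 arrays lay about 2 log2 units below all ES arrays, and knockdown and control overlapped in both states. Tet1 was 4.4-fold lower in knockdown EB9 than in knockdown ES cells (-2.14 ± 0.11 SE, adjusted p = 3.79e-10). In control EB9 it was 4.65-fold lower than in control ES cells (-2.22 ± 0.11, adjusted p = 6.75e-10). The other 2 probes gave -2.30 and -2.0 in the knockdown and -2.26 and -2.01 in the controls.

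Only the first probe of Tet1 passed for the knockdown, in both cell states, and differences between probes were not tested. The brightest gave 0.07 ± 0.11 (SE, 95% interval -0.16 to 0.30, adjusted p = 0.76) in EB9 and -0.01 ± 0.11 (95% interval -0.26 to 0.24, adjusted p = 0.95) in ES cells. The second (chr10:62276042-62276101) gave 0.09 (adjusted p = 0.516) and 0.07 (adjusted p = 0.521). The first (chr10:62301856-62301915), far upstream of the others, read -3.98, -3.98, -3.87 and -3.95 in knockdown EB9 against -4.19, -4.15, -4.22 and -4.26 in control EB9, without overlap. In ES cells it read -1.72, -1.63, -1.74 and -1.50 in the knockdown against -1.81, -2.02 and -2.0 in the controls, again without overlap. It was higher by 0.26 ± 0.06 in knockdown EB9 (adjusted p = 0.019) and by 0.30 ± 0.07 in knockdown ES cells (adjusted p = 0.00471). The EB9 call was lost without knockdown EB9 3 or 4 or control EB9 3 or 4 (adjusted p of 0.0509 to 0.0641), and under normexp background correction with quantile normalisation the adjusted p was 0.444 in EB9 and 0.0602 in ES cells.

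Tet2 was called for the knockdown in both cell states, with opposite signs, at both of its probes. At the second and brightest (chr3:133126751-133126810, mm9, minus strand) levels were 0.93, 0.65, 1.07 and 1.13 in Cbx7 knockdown EB9 and 0.51, 0.49, 0.53 and 0.43 in control EB9. They were 0.99, 1.28, 1.36 and 1.12 in Cbx7 knockdown ES cells and 1.34, 1.54 and 1.77 in control ES cells. Knockdown EB9 lay above control EB9 without overlap, and knockdown ES cells lay below control ES cells with 1 pair of arrays overlapping by a small margin. Tet2 was higher by 0.46 ± 0.12 (SE) in knockdown EB9 (1.38-fold, adjusted p = 0.02), and lower by 0.36 ± 0.13 in knockdown ES cells (1.29-fold, adjusted p = 0.0364).

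The first Tet2 probe (chr3:133126905-133126964) gave the same signs. It read -0.20, -0.55, -0.14 and -0.16 in knockdown EB9 against -0.75, -0.83, -0.88 and -0.92 in control EB9, and -0.09, 0.05, 0.11 and 0.02 in knockdown ES cells against 0.29, 0.35 and 0.45 in control ES cells. Neither pair overlapped. The differences were 0.58 ± 0.09 (SE, 1.49-fold, adjusted p = 0.00124) in EB9 and -0.34 ± 0.09 (1.27-fold, adjusted p = 0.0121) in ES cells. The effect in EB9 minus that in ES cells was 0.92 ± 0.13 (adjusted p = 0.000208) at the first probe and 0.82 ± 0.17 (adjusted p = 0.00305) at the second, and 0.42 to 0.96 within slides at the second. It passed at both probes without each of the 15 arrays in turn.

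The single knockdown calls of Tet2 were less firm than their difference. At the second probe the EB9 call was lost without knockdown EB9 3 or 4 or control EB9 4 (adjusted p of 0.0662, 0.0693 and 0.0568). Its ES call was lost without knockdown ES cells 1 or 4 or control ES cells 3 or 4 (adjusted p of 0.0988, 0.082, 0.0823 and 0.176). At the first probe the ES call was lost without control ES cells 4 (adjusted p = 0.0569), and the EB9 call was kept without any single array. With differentiation Tet2 fell by 1.06 ± 0.13 (SE, 2.09-fold, adjusted p = 3.67e-06) in control EB9 against control ES cells at the second probe and by 1.21 ± 0.09 (2.31-fold, adjusted p = 5.08e-08) at the first. In the knockdown the same comparison gave -0.24 ± 0.12 (adjusted p = 0.076) at the second, which passed without knockdown ES cells 1 (0.0364) or knockdown EB9 4 (0.041), and -0.29 ± 0.09 (adjusted p = 0.00823) at the first.

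**Figure D4:**
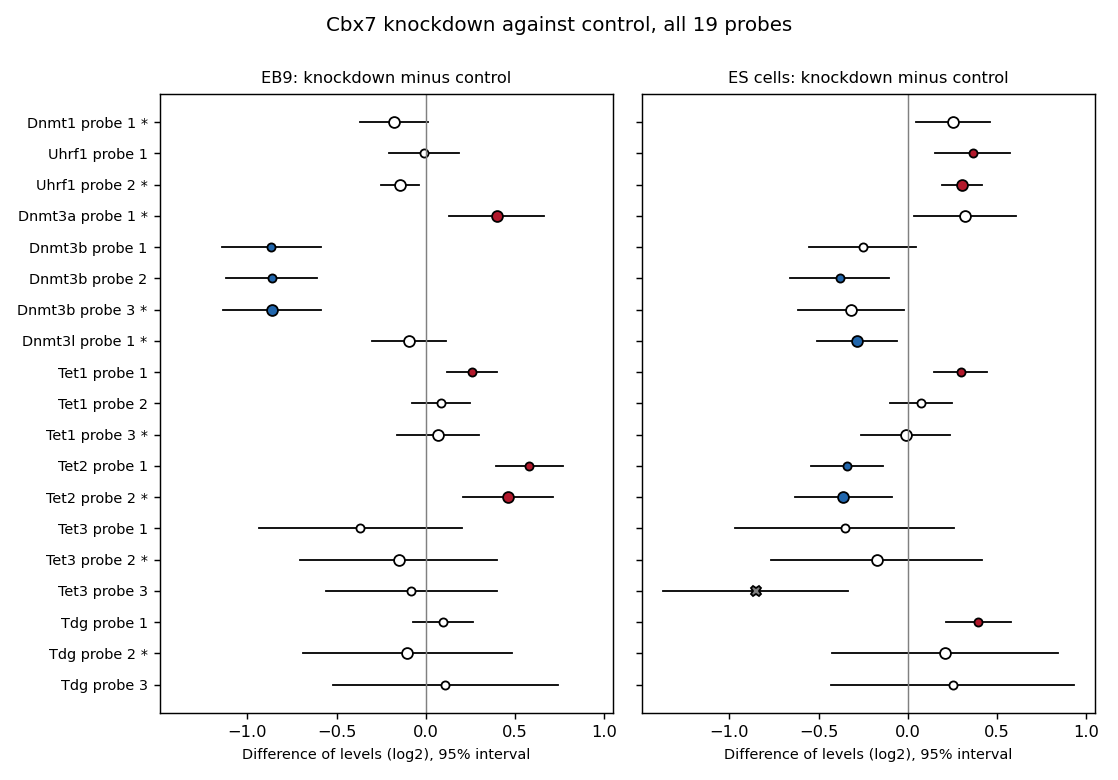
Difference of levels (log2, with 95% intervals) between Cbx7 knockdown and control for all 19 probes, in EB9 (left) and in ES cells (right). Filled circles passed at a limma adjusted p under 0.05 (red higher, blue lower), open circles did not, asterisks mark each gene's brightest probe, and the cross marks the third Tet3 probe, not well above background in either ES group. The 3 Dnmt3b probes lie between -0.87 and -0.86 in EB9, and both Tet2 probes are right of 0 in EB9 and left of 0 in ES cells.

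Tet3, the TET enzyme known from oocytes and neural cells, was dim and its 3 probes differed. Its brightest probe, the second, read -3.06, -2.44, -2.48 and -3.0 in Cbx7 knockdown EB9 against -2.70, -2.17, -2.43 and -3.06 in control EB9. In ES cells it read -3.31, -2.52, -2.57 and -3.21 in the knockdown against -3.20, -2.5 and -2.48 in the controls. All groups overlapped, and in each the arrays of slides 1 and 4 lay below those of slides 2 and 3. No difference passed at this probe. With the slide as a term, control EB9 was higher than control ES cells by 0.25 (adjusted p = 0.0262), and the other comparisons did not pass. The mean of a slide's arrays stood 0.32 and 0.34 below the group means on slides 1 and 4, and 0.33 and 0.25 above them on slides 2 and 3.

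The third Tet3 probe was well above background on all 8 EB9 arrays and on 0 of the 7 ES arrays. It read -5.94, -5.87, -6.14 and -5.76 in knockdown EB9 and -5.94, -5.58, -6.05 and -5.80 in control EB9. Measured means were -7.62 in knockdown ES cells and -6.77 in control ES cells. Tet3 was at least 1.62-fold higher at this probe in knockdown EB9 than in knockdown ES cells. In control EB9 it was at least 1.84-fold higher than in control ES cells. For each bound an ES array took its own reading or its dimmest signal called well above background, whichever was higher. The limma test was of the fitted differences, not of the bounds. These were 1.70 in the knockdown (adjusted p = 9.04e-06) and 0.93 in the controls (adjusted p = 0.0032). The probe passed the filter on dim signal only through the EB9 groups, where it is high. Its calls as higher in EB9 are tied to that filter and are no independent support for a rise. No fold is given for the knockdown in ES cells, where both groups were below background, although that probe stands among the 5 counted as lower. The first probe, well above background on 2 of 4 knockdown ES arrays and on all other arrays, gave no call, with differences of 0.44 ± 0.26 (SE, adjusted p = 0.144) in the knockdown and 0.45 ± 0.28 (adjusted p = 0.167) in the controls for EB9 against ES cells.

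Tdg, the glycosylase that excises oxidised methylcytosine, was read by 3 probes, of which the first is printed above. That probe read -0.87, -0.97, -0.94 and -0.88 in Cbx7 knockdown EB9 and -1.0, -0.83, -1.15 and -1.06 in control EB9. It read -0.98, -0.72, -0.99 and -1.03 in Cbx7 knockdown ES cells and -1.29, -1.28 and -1.40 in control ES cells. The controls of ES cells lay below all other arrays, and knockdown and control EB9 overlapped. Tdg was higher there by 0.39 ± 0.08 (SE) in knockdown ES cells (1.31-fold, adjusted p = 0.00248), and differed by 0.09 ± 0.08 in knockdown EB9 (adjusted p = 0.487). Control EB9 exceeded control ES cells by 0.32 ± 0.08 (1.24-fold, adjusted p = 0.00401), and knockdown EB9 differed from knockdown ES cells by 0.02 ± 0.08 (95% interval -0.15 to 0.18, adjusted p = 0.865).

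At the second and brightest Tdg probe (chr10:82112994-82113053) calls were made with the slide as a term. It read -0.88, 0.06, -0.08 and -0.55 in knockdown EB9 against -0.62, 0.11, -0.04 and -0.49 in control EB9. In ES cells it read -0.82, 0.00, -0.19 and -0.81 in the knockdown against -1.13, -0.38 and -0.48 in the controls. Arrays of slides 1 and 4 lay below those of slides 2 and 3 in every group, and no difference passed without a slide term. Within slides, knockdown ES cells were above control ES cells by 0.29 to 0.38, and with the slide term by 0.29 (adjusted p = 0.00258). Control EB9 against control ES cells gave 0.44 to 0.51 within slides and 0.49 with the slide term (adjusted p = 2.39e-05). With the slide term the knockdown effect in EB9 minus that in ES cells was -0.40 (adjusted p = 0.00336) at the second probe and -0.31 (adjusted p = 0.0264) at the first. Without it the values were -0.31 (adjusted p = 0.63) and -0.30 (adjusted p = 0.0685), of which the first-probe value passed without control EB9 3 (0.043). The third probe (chr10:82113115-82113174) gave no call, with or without the slide term.

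**Figure D5:**
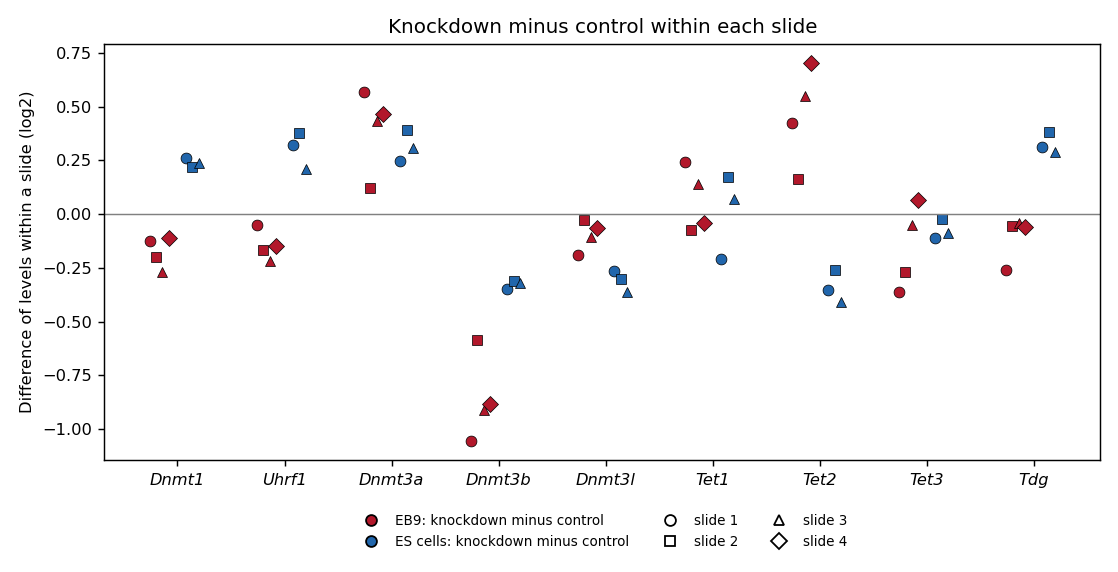
Knockdown minus control on each slide that holds both (log2), at each gene's brightest probe, for EB9 (red, 4 slides) and ES cells (blue, 3 slides). Marker shape gives the slide. Dnmt1, Uhrf1 and Tdg lie below 0 in EB9 and above 0 in ES cells on every slide, Tet2 runs the other way, and Dnmt3b is below 0 in both. At Tdg probes 1 and 3, not shown, the fitted EB9 differences were 0.09 and 0.11, and no Tdg probe passed in EB9.

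Taking the slide as a term raised the number of the 9 genes called for the knockdown in ES cells to 5, adding Dnmt1 and Tdg to Uhrf1, Tet2 and Dnmt3l. In that fit 6934 probes were called for the knockdown in EB9, against 3852 without the term, and 12814 in ES cells, against 10373. Arrays that shared a slide but not a group deviated from their group means together, with a median correlation of 0.41 across probes, which are not independent, over 21 pairs of arrays. The slide is the scanner header's slide number, and the labels do not say what else went with it.

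Genes of the methyl-CpG binding domain family, other readers of methylated CpG and relatives of UHRF1 mostly moved up with differentiation. Binding of methylated CpG by their proteins was not measured. Of 12, 10 were higher and 2 lower in knockdown EB9 against knockdown ES cells, with a median of 1.02 against -0.18 over all genes, and 9 were higher and 3 lower in control EB9 against control ES cells. Among those higher were Mbd5 (-0.62 in control EB9 against -5.85 in control ES cells) and Zbtb4, a zinc finger reader (-0.06 against -3.10). Mbd4, a glycosylase of mismatches at CpG, was lower by 0.94 ± 0.09 (SE, adjusted p = 2.88e-07). The knockdown gave 1 higher and 1 lower in EB9. In ES cells it gave 1 higher and 7 lower, the higher one being Mbd5 (+1.86 ± 0.11, adjusted p = 8.85e-08) and the lower ones including Uhrf2, the UHRF1 paralogue (-0.50 ± 0.05, adjusted p = 1.25e-05).

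Most genes of methyl donor supply were lower in EB9. Of 18 genes of the methionine and folate cycles and the reactions feeding them, 14 were lower and 2 higher in knockdown EB9 against knockdown ES cells, with a median of -1.76, and 13 were lower and 3 higher in the controls, with a median of -1.21. Gnmt, which uses the donor to methylate glycine, read -4.58 in control EB9 against -0.42 in control ES cells. Betaine-homocysteine methyltransferase, Bhmt, read -6.49 against -1.34, and was well above background on 2 of 4 control EB9 arrays. In knockdown EB9 7 of the 18 were lower and 0 higher, among them Gldc, the glycine decarboxylase (-0.92 ± 0.14 SE, adjusted p = 0.00135), and Srm, spermidine synthase (-0.55 ± 0.07, adjusted p = 0.000636). In knockdown ES cells 5 were higher, led by Tdh, threonine dehydrogenase (+0.66 ± 0.13, adjusted p = 0.00144), and 1 lower, Mat2a, which makes the donor itself (-1.22 ± 0.07, adjusted p = 5.58e-08).

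Of 13 genes that supply 2-oxoglutarate, the TET co-substrate, or act with TET proteins, 8 were lower and 3 higher in knockdown EB9 against knockdown ES cells, and 9 lower and 3 higher in the controls. Got1, an aspartate transaminase, read 2.46 in control EB9 against 4.68 in control ES cells, and Cxxc5, a CpG-binding partner of TET2, read 1.95 against 0.36. The knockdown gave 0 higher and 1 lower in EB9, and 4 higher and 3 lower in ES cells, with Idh3a of the citric acid cycle up (+0.56 ± 0.08 SE, adjusted p = 0.000143). Of 19 genes of base excision repair and cytosine deamination, 3 were higher and 15 lower in knockdown EB9 against knockdown ES cells, and 5 higher and 13 lower in the controls, where Gadd45b read -0.21 in EB9 against 2.37 in ES cells. In knockdown EB9 1 was higher and 2 lower. In knockdown ES cells 6 were higher, led by Parp2, which binds strand breaks (+0.93 ± 0.09, adjusted p = 4.33e-06), and 1 lower, the ligase Lig3 (-0.58 ± 0.07, adjusted p = 2.65e-05).

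Chromatin partners of the methyltransferases, chiefly of H3K9 methylation, included 24 genes. In knockdown ES cells 11 were higher and 2 lower, with Dppa3, which is known to bind UHRF1, at 1.81 against 0.36 in control ES cells (+1.45 ± 0.16 SE, adjusted p = 1.76e-05) and Hells, a remodeller needed for DNA methylation, at 1.73 against 1.11 (adjusted p = 0.00101). In knockdown EB9 2 were higher and 1 lower, with Dppa3 at -1.09 against -2.15 in control EB9 (+1.06 ± 0.15, adjusted p = 0.000797) and Prdm14 at -2.48 against -3.15 (adjusted p = 0.00171). Prdm14 is known as a repressor of Dnmt3b in mouse ES cells, and its part in the Dnmt3b values was not tested. EB9 against ES cells gave 7 higher and 11 lower in the knockdown and 9 higher and 11 lower in the controls, where Prdm14 read -3.15 in EB9 against 1.15 in ES cells.

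Germ line genes known as targets of promoter methylation were mostly low in EB9. Of 29, 27 were lower and 1 higher in knockdown EB9 against knockdown ES cells, and 25 lower and 2 higher in control EB9 against control ES cells, with medians of -3.92 and -4.55. Mov10l1, a piRNA helicase, read -6.42 in knockdown EB9 against -0.72 in knockdown ES cells. Its EB9 reading is near the floor: the first Tet3 probe at -6.19 and -6.23 was not well above background. Between 4 and 6 of the 29 were not well above background on any array of an EB9 group, and their fitted differences enter these medians although they are not measured on both sides. The knockdown gave 6 higher and 7 lower in EB9, and 7 higher and 9 lower in ES cells. In ES cells Tex11 and Sycp3, both of meiosis, were higher (+0.95 ± 0.11 SE, adjusted p = 1.96e-05, and +1.07 ± 0.19, adjusted p = 0.000573). Xlr3b was lower in both states, with -5.01 in knockdown EB9 against -3.01 in control EB9 and -0.74 in knockdown ES cells against 2.57 in control ES cells (adjusted p of 0.000289 and 9.9e-07). Xlr3 genes have near-identical copies that a probe may not separate.

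Markers of cell types are given next as counts, to be read beside the shares of all probes called. The knockdown called 7.65% higher and 6.49% lower in EB9, and 21.9% and 16.2% in ES cells. EB9 against ES cells called 34.2% higher and 43.9% lower in the knockdown, and 33.8% and 41.2% in the controls. Pluripotent markers in the knockdown were higher for 6 and lower for 1 of 20 in EB9, and higher for 2 and lower for 6 in ES cells, with list means of -0.59 to -0.29 in knockdown EB9 against -0.83 to -0.42 in control EB9, and 3.37 to 3.46 in knockdown ES cells against 3.53 to 3.55 in control ES cells. In EB9 Klf2 (+0.71 ± 0.09 SE, adjusted p = 0.000481) and Nr0b1 (+0.76 ± 0.15, adjusted p = 0.00653) were higher. Dnmt3l and Tet1, both markers of ES cells themselves, fell in EB9 with this list. Fibroblast markers were lower for 1 and higher for 0 of 11 in knockdown EB9, and higher for 2 and lower for 1 in knockdown ES cells, and 4 and 5 of the 11 were not well above background on any array of knockdown and control ES cells. Trophoblast and parietal endoderm markers gave 2 higher and 3 lower of 14 in knockdown EB9, and 3 higher and 6 lower in knockdown ES cells. Germ layer markers in ES cells gave 7 higher and 4 lower of 27 in the knockdown, and primed epiblast markers 3 higher and 1 lower of 9. Between EB9 and ES cells germ layer markers were higher for 18 and lower for 8 in the knockdown and higher for 19 and lower for 5 in the controls. Primed epiblast markers were higher for 5 and lower for 4 in the knockdown and higher for 6 and lower for 3 in the controls, and trophoblast and parietal endoderm markers higher for 8 and lower for 3, and higher for 7 and lower for 4. S phase genes were higher for 3 and lower for 20 of 25 in the knockdown and higher for 3 and lower for 16 in the controls. The part of these cell types in the values of the 9 genes was not tested.

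The genes most alike in pattern were found for each member as those with the smallest root mean square difference of log2 levels over the 15 arrays, each gene centred on its own mean. For Dnmt1 they were Cpsf1 and Dgcr6, at 0.05 each, where the median over all genes was 0.58. Uhrf1 was closest to Dnajc15 and Pbk, at 0.06 each (median 0.57). Dnmt3a lay closest to Mst1r and Zcchc14 (0.09 and 0.12, median 0.92), Dnmt3b to Polg and Hopx (0.12 and 0.15, median 0.63), and Dnmt3l to Grtp1 and Dnaic2 (0.13 each, median 1.97). Tet1 was closest to LOC553090 and Pikfyve (0.11 and 0.12, median 1.08), and Tet2 to Apol7b and Zfp772 (0.16 each, median 0.60). For Tet3 they were Rnf180 and 5430401F13Rik (0.10 and 0.11, median 0.59), and for Tdg AI646519 and a probe without a gene name (0.12 and 0.13, median 0.61). These likenesses share arrays, slides and the large step between EB9 and ES cells, and are descriptions only.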

How the data were processed

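Total RNA (500 ng per sample) labelled with Cy3 was hybridised to 1-colour Agilent mouse arrays, 15 arrays of 44397 features on 4 slides, per the labels' protocols and the file headers. Signal intensity is the processed signal of Agilent Feature Extraction 10.7.3.1, background-subtracted per the file headers. The deposited table of log2 values, which the authors made, came within 0.000154 of normexp background correction (offset 50) with quantile normalisation of the same arrays, and was used as an alternative.

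Here log2 of the processed signal was taken minus each array's 75th percentile over 43020 non-control features, flagged spots were left out and spots of a probe averaged. Of 39429 probes, 27250 were kept, those well above background on at least 3 arrays of a group. Limma 3.58.1 (R 4.3.3) fitted a mean for each of the 4 groups to the 15 arrays, with 11 residual degrees of freedom and a prior of 1.66, with Benjamini-Hochberg adjustment over the 27250 probes and a threshold of 0.05. The fitting code was tested on simulated data. SE and 95% intervals come from that fit, and the number of arrays limits their precision. A fit with the slide as a term and values within slides were also computed.

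The probe for a gene's count is its brightest over all arrays. Names came from RefSeq by accession for 26424 probes, by symbol for 3983 and by synonym for 826, and from the scanner file for 8196. Probe coordinates are those of the scanner file (mm9). In each list up to 3 genes per direction with the largest called differences could be named. The 9 genes and the lists were chosen with earlier results of these data known. Whether replicate numbers pair the samples cannot be told, since the number equals the slide in every group but the ES controls. Arrays of the same number deviated together with a median correlation of 0.32, and arrays of the same slide with 0.41. Numbers shared with ES controls, which lie on other slides, gave -0.31 over 9 pairs. Pairs that shared neither number nor slide gave -0.29. Alternatives were other scalings and background corrections, the authors' values, filters on dim probes, the mean of a gene's probes, slide, replicate block, array weights, a variance trend, only the groups compared, and each array left out in turn.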

Additional observations from a re-analysis of the deposited data

Results flagged for a closer look

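In 5 of 57 groups of 4 arrays, 1 array stood far from the other 3, where chance gives about 1 in 20. They were knockdown EB9 2 for Tet2 at probe 1 (-0.55), control EB9 3 for the upstream Uhrf1 probe (-2.93), control EB9 1 for Tet1 at probe 3 (-1.58), knockdown ES cells 1 for Uhrf1 at probe 2 (4.12) and knockdown ES cells 2 for Tdg at probe 1 (-0.72). For Uhrf1 in knockdown ES cells the 4 arrays lay within 4.09 to 4.12, so the gap is small in size.

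The knockdown effect in EB9 differed from that in ES cells by the limma test of the difference for 4 genes. It was -0.43 for Dnmt1, -0.45 for Uhrf1 at probe 2, -0.62 and -0.54 for Dnmt3b at probes 1 and 3, and 0.92 and 0.82 for Tet2 at probes 1 and 2 (log2, EB9 effect minus ES effect).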

How the results depend on the processing

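Of 1106 single-probe values under alternatives other than leaving out an array, 995 kept direction and side of the threshold, 32 lost the call, 44 gained one and 35 turned sign. The cause of these changes was not tested. Counts over the 9 genes: the difference of effects fell to 2 genes under quantile normalisation, normexp with quantile normalisation and the authors' values, against 4; the knockdown in ES cells gave 1 without a filter on dim probes, 5 with the slide term and 7 with array weights, against 3; the knockdown in EB9 gave 1 with only the groups compared, against 3. Over all probes the knockdown in EB9 gave 6934 with the slide term, 1263 with only the groups compared and 8015 with array weights, against 3852. Array weights gave 17526 for the knockdown in ES cells, against 10373, and 12650 for the difference, against 7870.

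Leaving out 1 array gave 1 to 6 of the 9 genes for the knockdown in ES cells, 1 to 3 in EB9, 6 and 6 to 7 for EB9 against ES cells in controls and knockdown, and 2 to 4 for the difference; over all probes 8197 to 10929, 2096 to 5448, 19424 to 20526, 20713 to 21501 and 6527 to 8435. The lowest count for EB9, 2096, was without knockdown EB9 4. Other settings also ended single calls. The Dnmt3a call in EB9 had adjusted p of 0.0718 with median scaling, 0.074 with the authors' values, 0.0824 without a filter and 0.186 with only the groups compared. Dnmt3l in ES cells had 0.0707 with median scaling and 0.0737 without a filter. For the difference, Dnmt1 had 0.123 and Dnmt3b (probe 3) 0.0523 with the authors' values. The replicate block gave 3, 3, 7, 6 and 4 of the 9 genes and 10819, 4490, 20690, 21766 and 8658 probes in the same order of comparisons. Whether these replicate numbers pair the samples cannot be told.

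Sign changes concerned differences that passed in neither setting. With median scaling, Dnmt3b (probe 1) and Tdg (probe 3) in control EB9 against control ES cells gave 4.5e-05 and 0.010, and the differences of effects of Tet1 (probe 2) and Tet3 (probe 2) gave -0.026 and -0.014. Under quantile normalisation, Tet3 (probe 3) in knockdown EB9 gave 0.039, Tdg (probe 3) in control EB9 against control ES cells 0.13, Tdg (probe 1) in knockdown EB9 against knockdown ES cells -0.028, and the differences of Tet1 (probe 2) and Tet3 (probe 2) -0.017 and -0.050. With normexp and quantile normalisation, and with the authors' values, these 5 were 0.042, 0.072, -0.012, -0.069 and -0.015. The mean of a gene's probes gave 0.12 for Tet1 in knockdown ES cells, and for Tdg 0.033 in knockdown EB9 and -0.024 in knockdown EB9 against knockdown ES cells. The slide term gave 0.063 for Tdg (probe 3) in control EB9 against control ES cells, and -0.0048 and -0.092 for the differences of Tet1 (probe 2) and Tet3 (probe 2). The replicate block gave 0.050, -0.012 and -0.069 for these, and 0.047 for Tet1 (probe 3) in knockdown ES cells. Array weights gave -0.22 for Tdg (probe 2) in knockdown ES cells, 0.053 for Tet3 (probe 3) and -0.035 for Tdg (probe 3) in knockdown EB9, -0.15 for Tet3 (probe 2) in control EB9 against control ES cells, and 0.28 for Tet3 (probe 1) and 0.017 for Tdg (probe 2) in the difference.

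Leaving out 1 array spanned 0 for Tet1 (probe 3, -0.070 to 0.048) and Tdg (probe 2, -0.027 to 0.35) in knockdown ES cells. In knockdown EB9 it did so for Uhrf1 (probe 1, -0.053 to 0.043), Tet1 (probe 3, -0.041 to 0.11), Tet3 (probe 3, -0.15 to 0.0059) and Tdg (probe 2, -0.24 to 0.070, and probe 3, -0.24 to 0.28). In control EB9 against control ES cells it did so for Dnmt3b (probe 1, -0.094 to 0.023), Tet3 (probe 2, -0.10 to 0.29) and Tdg (probe 3, -0.20 to 0.086), and in knockdown EB9 against knockdown ES cells for Tdg (probe 1, -0.018 to 0.085, and probe 2, -0.050 to 0.26). For the difference it did so for Dnmt3a (-0.027 to 0.22), Tet1 (-0.10 to 0.013, -0.037 to 0.058 and -0.028 to 0.14 for probes 1 to 3), Tet3 (probe 1, -0.17 to 0.29, and probe 2, -0.13 to 0.26) and Tdg (probe 3, -0.49 to 0.027). Signal over background limited Tet3 probe 3, which has only bounds in ES cells.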
